A study of Mus musculus with 6 samples.

Results

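The DNA replication and mitosis genes are a list of 40 genes of the dividing cell, 21 of S phase (from the *Mcm* helicase genes to *Cdt1*) and 19 of G2 and M phase (from *Mki67* to *Foxm1*). They were chosen by name and read on the array probe sets that carry their gene symbol alone, the brightest of a gene where there was more than 1. In all 39 of the 40 were measured, among 19936 genes on the array: the 21 of S phase and 18 of G2/M. *Ccnb1*, the gene of cyclin B1, had no probe set of its own symbol and was not analysed here.

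Cells enter S phase when cyclin E and Cdk2 release E2F transcription factors from the retinoblastoma proteins. E2F factors then drive the genes that license origins, unwind and copy DNA and supply its building blocks. Later in the cycle cyclin A, cyclin B and Cdk1 bring the cell into mitosis, and genes of that stage are held under another programme, which the MuvB complex and FOXM1 control. Pre-B cells divide fast under the pre-B cell receptor and interleukin 7, and BCR-ABL1, an always active tyrosine kinase found in some leukaemias, keeps them dividing without either. Ikaros, the zinc finger factor that *IKZF1* encodes, is known to restrain the growth of pre-B cells.

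Total RNA was measured on Affymetrix arrays in pre-B cells of C57Bl6 mice aged 4 weeks, of wild-type genotype and transformed by BCR-ABL1. The control group received the empty retroviral vector pMIG and the other group pMIG-IKZF1. Cells were sorted for GFP at 3 days from transduction, and each group has 3 arrays, called here empty vector 1 to 3 and IKZF1 1 to 3 by the number in their titles. All groups thus carry BCR-ABL1, the wild-type genome and the vector. Nothing in the labels ties the arrays of 1 group to different cultures or mice. P-values thus measure no more than the spread between these samples, and that spread may be technical. The insert's species and isoform are not stated either. The number of arrays limits the precision.

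Sequences near the start of these genes are described by phase before the values. The phases were set by gene name, not by sequence. RefSeq promoter windows, from 250 bases before to 50 bases after the annotated start (GRCm38.p6), were at hand for 34 of the 40 members. These 34 have 37 windows. *Mcm4*, *Ccne2*, *Ccna2*, *Aurkb*, *Kif20a* and *Foxm1* had none in the table used. Each window was searched on both strands for 4 kinds of short motif, and overlapping matches of 1 kind were counted once, while matches of different kinds may overlap. The E2F kind was any of TTCCCGCC, TTTCCCGC and TTTGGCGC, of which the first pair share letters. The CHR kind, the element that MuvB binds in mitotic genes, was TTTGAA or TTTAAA, the latter reading the same on both strands. The NF-Y kind was CCAAT, and the Ikaros kind was TGGGAA.

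An E2F match stood in 10 of 22 windows of S phase members (45.5%) and in 0 of 15 windows of G2/M members, against 3.21% of all 32851 windows. CHR matches ran the other way. They stood in 14 of 15 G2/M windows (93.3%), in 8 of 22 S phase windows (36.4%) and in 27.6% of all windows. NF-Y matches were in 14 of 15 G2/M windows and 14 of 22 S phase windows (63.6%), against 37.4% of all. The Ikaros kind was found at 27.3% in S phase windows, 20.0% in G2/M windows and 25.6% in all windows. These shares describe letters in a window, and a match is not a bound site. Within 60 bases of the start, CHR matches lay in 12 G2/M and 5 S phase genes, and E2F matches in 5 S phase genes.

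**Figure D1:**
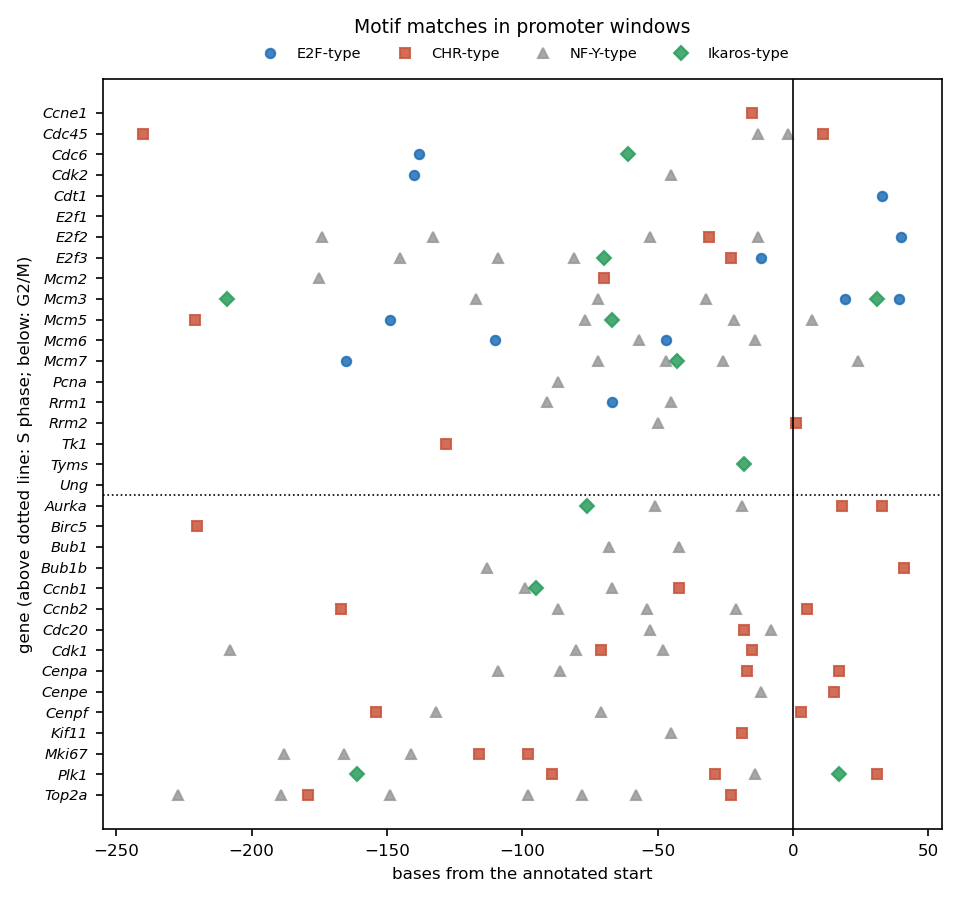
Matches of the 4 motif kinds in the promoter windows of the 34 members with a window, by their distance from the annotated start (x axis, bases) and by gene (y axis, S phase above the dotted line, G2/M below). *E2f2*, *E2f3* and *Mcm7* have 2 windows each, drawn on 1 line. E2F-type matches (circles) stand only above the dotted line here, and CHR-type matches (squares) in 14 of the 15 G2/M genes.

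The windows with the most kinds of motif are printed as examples, 2 of each phase. *Ccnb1* ties with the G2/M pair in kinds, but has fewer matches and was not measured. Capitals mark the matches. *E2f3* (chr13:29986014-29986313, minus strand) and *Mcm5* (chr8:75109259-75109558, plus strand) are S phase members, and both hold an E2F match. *Plk1* (chr7:122159185-122159484, plus strand) and *Aurka* (chr2:172370521-172370820, minus strand) are G2/M members, with 3 and 2 CHR matches and no E2F match. The sequences run 5′ to 3′ on the strand of the gene.
E2f3: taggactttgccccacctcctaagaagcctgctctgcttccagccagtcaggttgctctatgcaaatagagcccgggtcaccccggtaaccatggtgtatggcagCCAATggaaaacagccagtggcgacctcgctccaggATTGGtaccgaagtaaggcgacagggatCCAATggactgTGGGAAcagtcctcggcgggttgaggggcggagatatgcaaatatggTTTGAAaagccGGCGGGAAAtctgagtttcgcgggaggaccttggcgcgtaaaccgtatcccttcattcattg
Mcm5: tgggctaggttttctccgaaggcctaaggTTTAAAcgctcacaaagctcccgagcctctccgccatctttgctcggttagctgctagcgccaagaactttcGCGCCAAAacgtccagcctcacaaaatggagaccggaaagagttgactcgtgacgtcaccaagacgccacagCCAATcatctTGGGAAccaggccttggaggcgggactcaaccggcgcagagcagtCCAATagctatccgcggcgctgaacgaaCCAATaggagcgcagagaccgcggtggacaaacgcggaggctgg
Plk1: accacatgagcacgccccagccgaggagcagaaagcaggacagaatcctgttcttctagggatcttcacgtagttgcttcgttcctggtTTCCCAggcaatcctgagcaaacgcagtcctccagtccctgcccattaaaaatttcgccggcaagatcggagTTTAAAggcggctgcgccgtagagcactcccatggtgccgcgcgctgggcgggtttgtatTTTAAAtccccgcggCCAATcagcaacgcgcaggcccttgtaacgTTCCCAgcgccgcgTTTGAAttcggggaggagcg
Aurka: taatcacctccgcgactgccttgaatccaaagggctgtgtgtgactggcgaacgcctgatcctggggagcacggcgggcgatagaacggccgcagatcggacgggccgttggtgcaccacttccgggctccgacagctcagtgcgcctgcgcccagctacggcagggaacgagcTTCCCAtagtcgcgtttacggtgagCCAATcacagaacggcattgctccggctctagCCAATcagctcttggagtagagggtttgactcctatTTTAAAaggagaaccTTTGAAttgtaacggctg

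Array medians of intensity lay between 100.2 and 107.2. *Ikzf1*, the transduced gene, read 11.85, 11.78 and 11.98 on the log2 scale in the empty vector arrays and 13.09, 13.14 and 13.06 in the IKZF1 arrays, a 2.34-fold difference (limma, Benjamini-Hochberg adjusted p = 0.0021). Levels are log2(intensity + 1) throughout, and differences are IKZF1 minus empty vector on that scale. All 39 members lay above the 95th percentile of 1190 olfactory and vomeronasal receptor genes, 6.12 and 6.24 in the 2 groups; the lowest member value on any array was 7.77. All 10 measured pre-B markers also lay above it in both groups. Of markers of other cells, 1 of 9 for T and NK cells and 1 of 10 myeloid ones did so in the empty vector group, and 2 and 0 in the IKZF1 group. For stromal and endothelial cells 4 of 8 did so in each group, and of 4 measured erythroid and megakaryocyte markers 3 and 2. The summed intensity of the T and NK markers was 435 to 447 in empty vector and 469 to 575 in IKZF1 arrays, and that of the stromal and endothelial markers 1655 to 2049 and 2268 to 2396. None of these markers passed the threshold, and their part in the results was not tested. Myeloid sums overlapped (502 to 545 and 485 to 559), as did erythroid and megakaryocyte sums (275 to 288 and 285 to 313) and pre-B sums (61250 to 67816 and 62779 to 66449).

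The median range of the members over the 3 empty vector arrays was 0.54, and their median difference between the groups was -0.07. Over all genes these were 0.17 and 0.03. A range and a difference of means are unlike measures. In each of the 39 genes, empty vector 2 was the lowest and empty vector 3 the highest of the control arrays, an order found in 27.1% of all genes. S phase genes spread most: they ranged over a median of 0.62 on the log2 scale between these 3 arrays, against 0.27 for G2/M genes and 0.17 for all genes. The IKZF1 arrays lay close together, with median ranges of 0.14, 0.16 and 0.19. No member passed the test between the groups. The RNA is that of all GFP-sorted cells of a sample together, so fewer cells in a phase and less of a transcript per cell cannot be told apart.

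**Figure D2:**
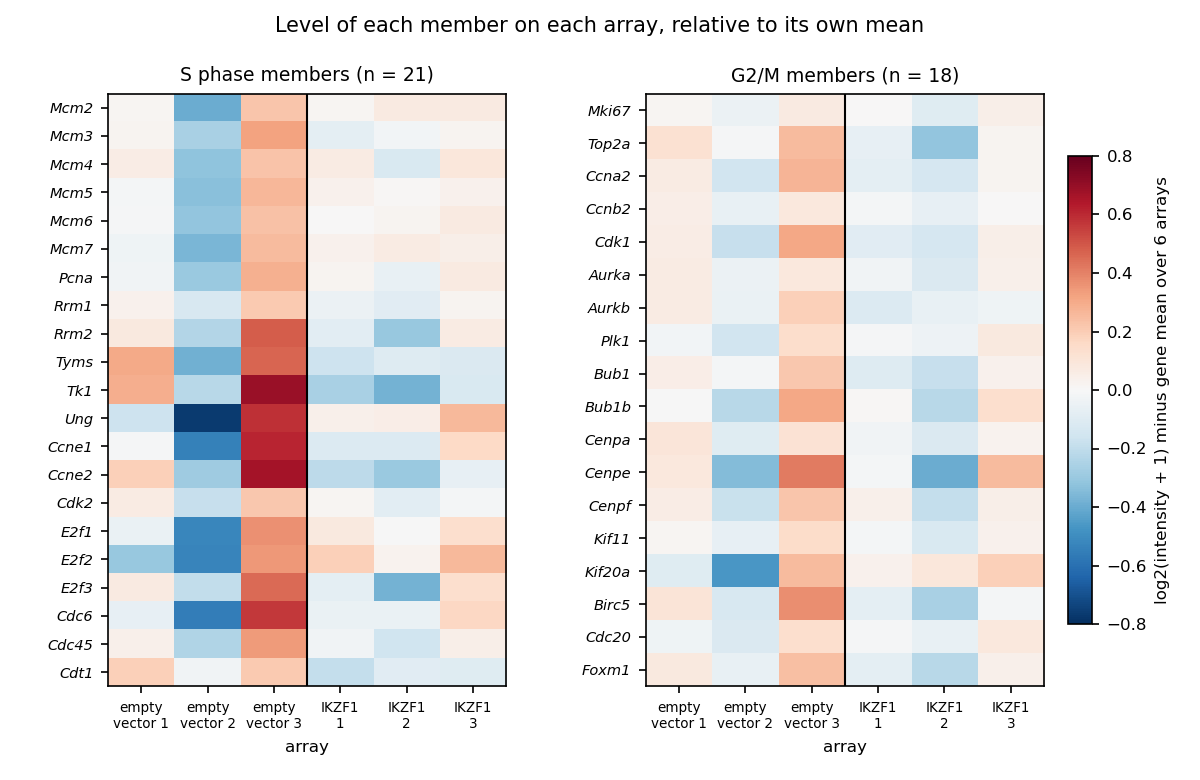
Level of each measured member on each array, as log2(intensity + 1) minus the gene's own mean over the 6 arrays (colour, red higher, blue lower), S phase genes on the left and G2/M genes on the right. Empty vector 2 is the lowest and empty vector 3 the highest control array in each row; the IKZF1 arrays to the right of the line differ less from each other in most S phase rows.

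Averaged over the 21 S phase genes, the arrays lay at 0.03, -0.34 and 0.38 from the genes' own means in empty vector 1, 2 and 3, and at -0.04, -0.10 and 0.06 in IKZF1 1, 2 and 3. The IKZF1 arrays thus fell between the extremes of the control arrays. For the 18 G2/M genes the same means were 0.04, -0.13 and 0.21, and -0.04, -0.15 and 0.06. Here IKZF1 2 was about as low as empty vector 2. All 39 members lay above their own mean in empty vector 3 and below it in empty vector 2. The difference between the phase means, S minus G2/M, was -0.01, -0.21 and 0.17 in the empty vector arrays and 0.00, 0.05 and 0.00 in the IKZF1 arrays. So S phase genes departed further than G2/M genes in both outlying control arrays, while the phases moved alike on the IKZF1 arrays.

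**Figure D3:**
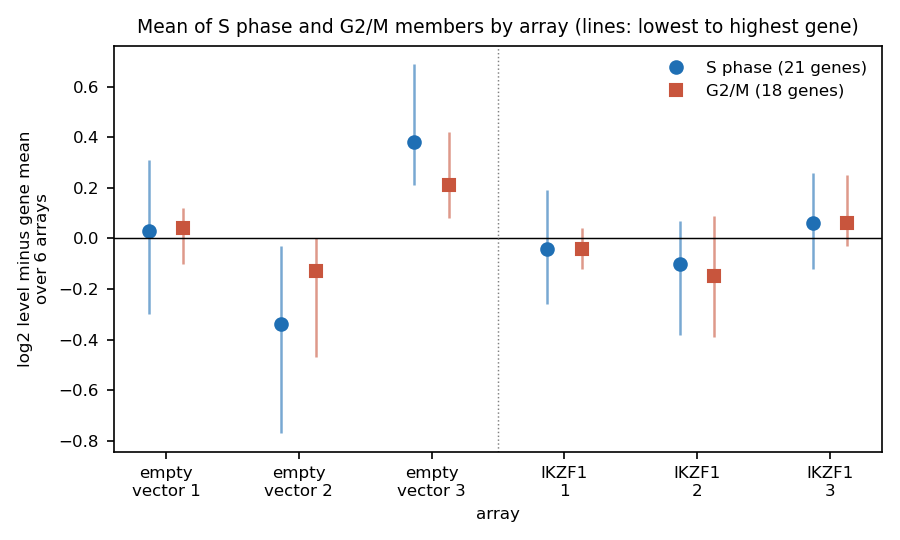
Mean level of the 21 S phase genes (circles) and 18 G2/M genes (squares) on each array, as log2 level minus the gene's mean over the 6 arrays; vertical lines run from the lowest to the highest gene. Empty vector 2 and 3 hold the lowest and highest S phase means, -0.34 and 0.38, and the 3 IKZF1 arrays lie between -0.10 and 0.06.

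The standard deviation was larger in the empty vector group for all 21 S phase genes and for 15 of 18 G2/M genes, against 50.8% of all genes tested. Its median in S phase genes was 0.31 in empty vector and 0.07 in IKZF1 arrays (n = 3 each), and in G2/M genes 0.14 and 0.08. Over all genes it was 0.09 and 0.10. The exceptions were *Mki67*, *Top2a* and *Aurka*. In 16 of 21 S phase genes and 5 of 18 G2/M genes the IKZF1 arrays lay wholly within the range of the control arrays, which held for 16.2% of all genes. The widest control range was that of *Ung*, which encodes the glycosylase that removes uracil from DNA: it read 8.37, 7.77 and 9.12 in empty vector 1 to 3, a range of 1.35, and 8.58, 8.59 and 8.80 in the IKZF1 arrays. A standard deviation of 3 arrays is loose, and the difference in spread was not tested.

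In the IKZF1 group the order was less uniform. IKZF1 3 was the highest of its group in 35 of 39 members (17 in S phase, 18 in G2/M) and IKZF1 2 the lowest in 28 (12 and 16), against 27.8% and 31.4% of all genes. Array 1 of each group stood near the genes' means, on opposite sides in most G2/M genes: 14 of 18 were above in empty vector 1 and 14 below in IKZF1 1. Over all genes, the deviations from the group mean of arrays sharing a number had correlations of r = 0.24, 0.60 and 0.66 for numbers 1, 2 and 3. Since each lay above 0.1, differences within a number are given too. Within number 1 the IKZF1 array was lower in 26 of 39 members (mean difference -0.07 in S phase and -0.08 in G2/M genes). Within number 2 it was higher in 16 of 21 S phase genes (mean 0.24) and lower in 13 of 18 G2/M genes (mean -0.02). Within number 3 it was lower in all 39 (means -0.32 and -0.15), where 46.6% of all genes were lower. The mean S phase difference was thus above 0 in number 2 and below 0 in numbers 1 and 3. In G2/M, 12 of 18 genes were lower within all 3 numbers, and in S phase 5 of 21, against 20.3% of all genes.

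**Figure D4:**
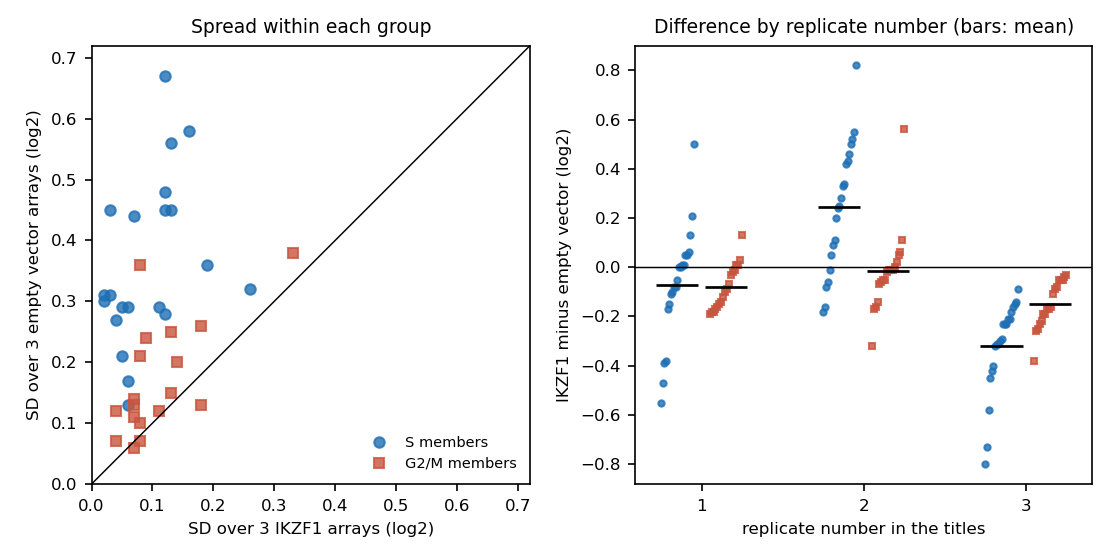
Left, standard deviation of each member over the 3 empty vector arrays (y axis) against that over the 3 IKZF1 arrays (x axis), log2 scale, with the line of equality; all 21 S phase genes lie above it. Right, IKZF1 minus empty vector difference of each member within each replicate number, S phase as circles and G2/M as squares, bars at the mean; for number 3 all 39 lie below 0.

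The comparison of the groups addressed whether supplying Ikaros changed the transcripts of the division machinery. Of the 39 members, 0 were higher and 0 lower at an adjusted p under 0.05 in limma, where 2.25% of all 19936 genes passed (448, of which 223 or 1.12% higher and 225 or 1.13% lower). With replicate number as a block 0 passed as well, against 7.21% of all genes (1438, of which 3.36% higher and 3.85% lower). At an unadjusted p under 0.05, 1 member passed without and 9 with the block, all lower, against 8.84% and 12.2% of all genes lower. The median difference was -0.05 for S phase genes and -0.07 for G2/M genes, and 0.03 over all genes. In S phase 11 of 21 were below 0 (52.4%) and in G2/M 15 of 18 (83.3%), against 40.8% of all genes. Without empty vector 3, 1 member passed, *E2f2*, where 4.75% of all genes passed in that fit, 1.81% higher and 2.94% lower. The mean difference of S phase genes was then 0.13, and it was -0.23 without empty vector 2, against -0.05 with all arrays; for G2/M genes it was 0.00 and -0.17, against -0.08.

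**Figure D5:**
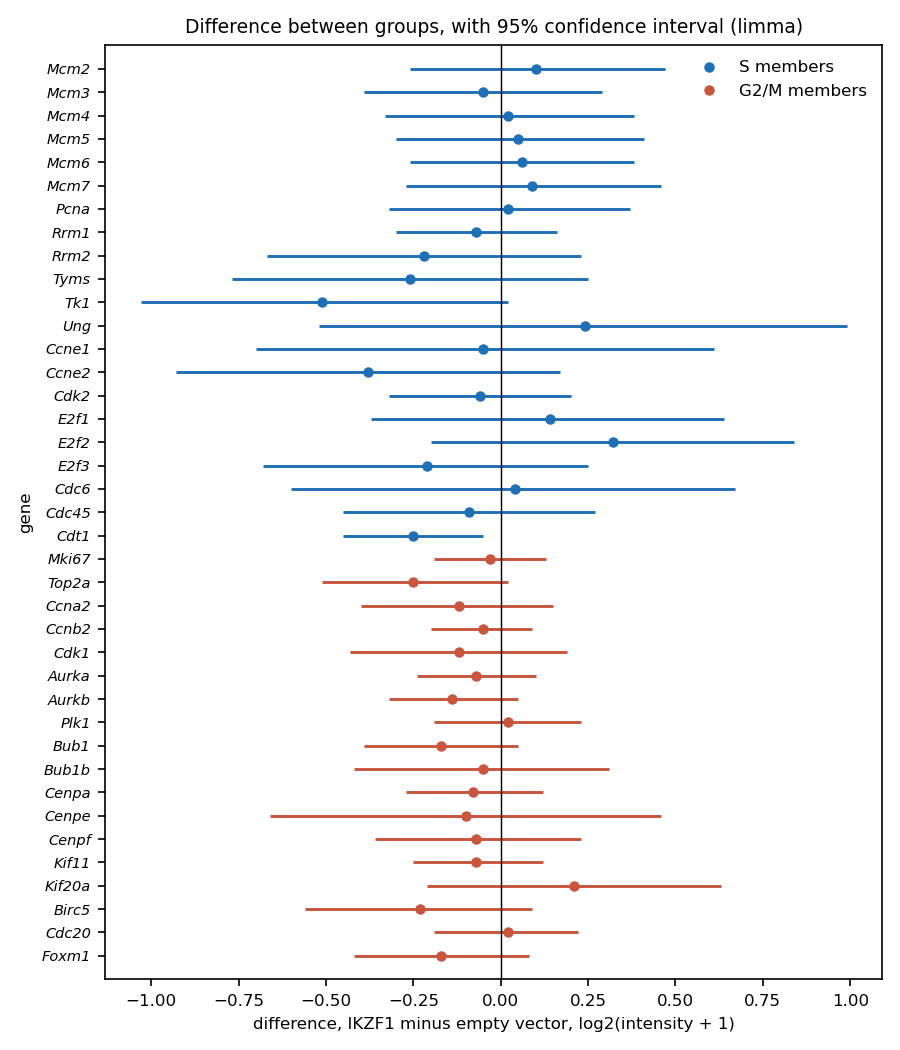
Difference of each member between the groups (IKZF1 minus empty vector, log2 scale, points) with the 95% confidence interval of the limma fit (lines; n = 3 arrays per group). The fit drawn has no replicate block. The intervals of 38 members include 0 and that of *Cdt1* does not, before adjustment for the number of genes tested. With the block the intervals of 9 members, not drawn, lie below 0. No member passed after adjustment in either fit.

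Among the genes that load and start the replication helicase, *Cdt1* was the only member whose groups did not overlap, 1 of 39 where 26.5% of all genes did not overlap in either direction. *Cdt1*, whose product brings the MCM complex to origins, read 11.22, 11.00 and 11.24 in empty vector 1 to 3 and 10.84, 10.94 and 10.93 in IKZF1 1 to 3. The IKZF1 arrays were all below the control arrays, as they were in 11.3% of all genes. The difference was -0.25 ± 0.08 (SE, n = 3 arrays per group; 95% interval -0.45 to -0.05; limma, adjusted p = 0.19). *Cdc6*, its partner at origins, read 8.96, 8.47 and 9.59 against 8.97, 8.97 and 9.19, so that the groups overlapped (difference 0.04, interval -0.60 to 0.67). *Cdc45*, which joins the helicase as it is switched on, had -0.09 (-0.45 to 0.27).

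The 6 subunits of the MCM helicase, which opens the double strand, moved together between arrays. *Mcm2* read 12.07, 11.66 and 12.28 in the empty vector arrays and 12.07, 12.13 and 12.13 in the IKZF1 arrays. *Mcm7* read 12.51, 12.18 and 12.80 against 12.58, 12.61 and 12.59. In both the IKZF1 arrays sat within a narrow band near empty vector 1. Their differences between groups ran from -0.05 in *Mcm3* to 0.10 in *Mcm2*, 5 above and 1 below 0, with adjusted p from 0.74 to 0.95; the interval of *Mcm2* was -0.26 to 0.47. *Pcna*, the sliding clamp of the polymerases, read 13.16, 12.89 and 13.47 against 13.21, 13.13 and 13.26 (difference 0.02, interval -0.32 to 0.37), and its other probe set gave 0.03.

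All 4 genes of deoxynucleotide supply had differences below 0, though none passed. *Tk1*, the thymidine kinase that salvages thymidine, had the most negative difference of the 39 members. It read 10.34, 9.83 and 10.74 in empty vector 1 to 3 and 9.79, 9.67 and 9.93 in IKZF1 1 to 3. Only empty vector 2 reached into the IKZF1 range. The difference was -0.51 ± 0.22 (SE; interval -1.03 to 0.02; limma, adjusted p = 0.29, and 0.073 with the block), and -0.39 at its other probe set. *Tyms*, the thymidylate synthase, read 10.92, 10.23 and 11.08 against 10.45, 10.51 and 10.50 (difference -0.26, interval -0.77 to 0.25). The subunits of ribonucleotide reductase had -0.22 for *Rrm2* (interval -0.67 to 0.23) and -0.07 for *Rrm1* (-0.30 to 0.16). Without empty vector 3 these differences were -0.29 for *Tk1*, -0.09 for *Tyms*, -0.03 for *Rrm2* and 0.01 for *Rrm1*.

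Genes of the G1 to S switch overlapped between the groups, and none passed. *Ccne2*, a cyclin E gene, read 10.41, 9.93 and 10.88 in the empty vector and 10.01, 9.92 and 10.15 in the IKZF1 arrays, a difference of -0.38 ± 0.23 (SE; interval -0.93 to 0.17; limma, adjusted p = 0.42). It was -0.14 without empty vector 3 and -0.62 without empty vector 2. *Ccne1*, the other cyclin E gene, read 10.69, 10.16 and 11.31 against 10.59, 10.59 and 10.86. Its difference was -0.05 with an interval of -0.70 to 0.61. Their kinase *Cdk2* had -0.06 (-0.32 to 0.20). Of the activating E2F genes, *E2f2* had the most positive difference of the list: it read 10.19, 9.96 and 10.84 against 10.68, 10.52 and 10.75. The highest value was still that of empty vector 3. The difference was 0.32 ± 0.22 (SE; interval -0.20 to 0.84; limma, adjusted p = 0.47). Without empty vector 3 it was 0.57 (adjusted p = 0.034). *E2f1* had 0.14 (-0.37 to 0.64), and *E2f3* had -0.21 (-0.68 to 0.25) and -0.29 at its other probe set.

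Setting each gene against the mean of its phase on the same array takes out the mean movement of the phase. This is a description chosen after the values were seen, and each gene is part of the mean it is set against. Genes that move more or less than that mean keep part of the movement or turn it round. *Ung* lay at -0.20, -0.43 and 0.20 on the empty vector arrays after this step, and *Cdt1* at 0.16, 0.31 and -0.17. Overlap after it thus depends in part on how far a gene moves. *Tk1* then lay at 0.26, 0.12 and 0.31 on the empty vector arrays and at -0.22, -0.29 and -0.18 on the IKZF1 arrays. *Ccne2* lay at 0.16, 0.05 and 0.28 against -0.17, -0.20 and -0.12. In both genes the groups no longer overlapped. *E2f2* lay the other way, at -0.33, -0.19 and -0.04 against 0.23, 0.12 and 0.20. *E2f1* did so by less, at -0.08, -0.18 and -0.01 against 0.12, 0.09 and 0.07. *Rrm2* was lower relative to its phase (difference -0.17), and *Mcm2* and *Mcm7* higher (0.15 each), without overlap; the other 14 S phase genes overlapped. In G2/M, *Top2a*, *Bub1*, *Birc5* and *Foxm1* lay lower and *Plk1*, *Kif20a* and *Cdc20* higher without overlap. Together that is 7 of 21 and 7 of 18 genes, where 1 of the 39 members did not overlap before the step. Deviations from a phase mean balance out on each array, so genes above it stand with genes below it. The counts are thus no result about the members. No like share was computed for other genes. Set against the mean of all genes on each array, 25.5% of all genes did not overlap, and 26.5% did not before that step. The mean of all genes hardly moved between the empty vector arrays (SD of the array means 0.01). For S phase and G2/M genes that SD was 0.36 and 0.17, so the counts and the 25.5% are not of the same kind.

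In the G2/M phase genes, differences were small and mostly below 0. *Mki67*, the gene of the proliferation marker Ki-67, read 12.59, 12.53 and 12.65 in empty vector 1 to 3 and 12.58, 12.48 and 12.62 in IKZF1 1 to 3. These 6 values span less than those of the *Mcm* genes, and the difference was -0.03 with an interval of -0.19 to 0.13. *Top2a*, the topoisomerase that untangles chromosomes, read 12.57, 12.44 and 12.70 against 12.38, 12.13 and 12.47. Empty vector 2 and IKZF1 3 overlapped slightly. The difference was -0.25 ± 0.11 (SE; interval -0.51 to 0.02; limma, adjusted p = 0.30, and 0.076 with the block). Its other probe set gave -0.31, at levels between 4.39 and 5.08, under the receptor gene limit. *Foxm1*, the factor that drives mitotic genes, read 10.89, 10.75 and 11.05 against 10.73, 10.59 and 10.85. It was lower by a like amount within each number (-0.17, -0.16 and -0.19; adjusted p = 0.42 without and 0.14 with the block).

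The cyclins and kinases that start mitosis overlapped between groups. *Cdk1*, the mitotic kinase, read 12.42, 12.18 and 12.67 against 12.27, 12.23 and 12.41 (difference -0.12, interval -0.43 to 0.19). Its cyclins had -0.12 for *Ccna2* (-0.40 to 0.15) and -0.05 for *Ccnb2* (-0.20 to 0.09). *Plk1*, the polo kinase, had 0.02 (-0.19 to 0.23), *Aurka*, the aurora kinase of centrosomes, -0.07 (-0.24 to 0.10) and *Aurkb*, that of the chromosomal passenger complex, -0.14 (-0.32 to 0.05). *Birc5*, which encodes survivin of the same complex, read 10.28, 10.05 and 10.55 against 10.10, 9.92 and 10.16. Its difference of -0.23 ± 0.14 (SE; interval -0.56 to 0.09) did not pass (limma, adjusted p = 0.41).

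At kinetochores, *Bub1*, a kinase of the spindle checkpoint, read 11.94, 11.87 and 12.10 against 11.78, 11.70 and 11.92. The difference was -0.17 (-0.39 to 0.05), with -0.16, -0.17 and -0.19 within numbers 1, 2 and 3. *Cenpe*, the kinetochore motor gene, had the widest spread of the G2/M genes in both groups: 10.38, 9.95 and 10.71 against 10.28, 9.90 and 10.55. Its values followed the replicate number, with differences of -0.09, -0.05 and -0.16 within numbers 1 to 3. The checkpoint gene *Bub1b* had -0.05, the centromeric histone gene *Cenpa* -0.08, the kinetochore gene *Cenpf* -0.07, and *Cdc20*, the activator of the anaphase-promoting complex (APC/C), 0.02. Of the spindle motors, *Kif11* had -0.07. *Kif20a*, a motor of cytokinesis, had the most positive difference in G2/M and read 11.21, 10.84 and 11.56 against 11.34, 11.40 and 11.50 (0.21, interval -0.21 to 0.63). Its IKZF1 arrays lay within the control range, as in most S phase genes. Leaving out 1 array gave -0.32 to -0.15 for *Top2a*, -0.35 to -0.11 for *Birc5*, -0.25 to -0.10 for *Foxm1*, -0.23 to -0.10 for *Bub1* and 0.03 to 0.39 for *Kif20a*.

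Genes of the same machinery outside the list were counted in the same way. Without the block 1 of 176 passed, where 2.25% of all genes did. With the block more passed in each list, all of them lower, as given list by list below. Of 48 further replication genes, 1 fell, *Orc5*, a subunit of the origin recognition complex: it read 9.75, 9.62 and 9.71 in empty vector and 9.33, 9.12 and 9.31 in IKZF1 arrays. All IKZF1 arrays were lower, as in 11.3% of all genes. *Orc5* is named because it passed, so this is no separate result. The difference was -0.44 ± 0.08 (SE, limma, adjusted p = 0.0497). That call did not hold with array medians centred (adjusted p = 0.06), with an intensity trend (0.068) or with any array left out (0.056 to 0.23). *Dbf4*, the activator of the origin-firing kinase, had -0.47 (adjusted p = 0.14), and *Orc2* and *Pold3* -0.28 and -0.35 (0.21 and 0.23). The median was -0.17, with 41 of 48 below 0, against 40.8% of all genes. With the block 7 were lower, against 3.85% of all genes: *Dbf4*, *Orc5*, *Pold3*, *Prim2*, *Rfc1*, *Rpa3* and *Tipin*. The control order of the members, empty vector 2 lowest and 3 highest, held in 46 of 48, against 27.1% of all genes.

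Of 56 further mitosis genes, 0 passed (limma) and 15 reached an unadjusted p under 0.05, against 18.4% of all genes. Their median was -0.21, and 52 were below 0, against 40.8% of all genes. The control order of the members held in 54, against 27.1% of all genes. *Dlgap5* (-0.41), *Melk* (-0.45), *Sgo1* (-0.51) and *Ndc80* (-0.59) had adjusted p of 0.10, 0.11, 0.11 and 0.16. *Sgo1*, which guards cohesion at centromeres, read 10.91, 10.70 and 11.13 against 10.44, 10.23 and 10.53, and *Ndc80*, which ties kinetochores to microtubules, read 10.22, 9.74 and 10.43 against 9.56, 9.41 and 9.65. In both, all IKZF1 arrays were below all control arrays, as in 11.3% of all genes. Both are named for their small p, so this is no separate result. With the block 12 of the 56 were lower and 0 higher, against 3.85% and 3.36% of all genes.

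Of 15 E2F, pocket protein and MuvB regulators 0 passed (limma) and 3 reached an unadjusted p under 0.05, against 18.4% of all genes. *E2f8*, a repressing E2F, read 11.81, 11.68 and 11.62 against 11.37, 11.34 and 11.36. It was lower without overlap, as 11.3% of all genes were, and lacked the control order of the members. *E2f8* is named for its small p, so the lack of overlap is no separate result. Its difference was -0.35 (adjusted p = 0.060, and 0.040 with the block). The MuvB subunits *Lin9* and *Lin54* had -0.38 and -0.35 (adjusted p = 0.15 each, and 0.028 and 0.049 with the block), and *Tfdp2*, a partner of E2F, -0.29. With the block 3 of the 15 were lower, against 3.85% of all genes: *E2f8*, *Lin9* and *Lin54*. Of 16 checkpoint and homologous recombination genes 0 passed and 7 reached an unadjusted p under 0.05, against 18.4% of all genes. *Brca2* read 9.70, 9.41 and 9.68 against 9.12, 8.89 and 9.16 (-0.54, adjusted p = 0.065), *Atr* had -0.49, *Palb2* -0.39 and *Chek2* -0.36. With the block 4 were lower, against 3.85% of all genes: *Atr*, *Brca2*, *Palb2* and *Rad51ap1*.

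Of 15 APC/C genes 0 passed (limma) and 2 reached an unadjusted p under 0.05, against 18.4% of all genes, with a median of -0.03. *Cdc16*, a subunit, had -0.36 (adjusted p = 0.082, and 0.030 with the block), *Anapc13* and *Anapc2* 0.14 each, and *Fzr1*, the G1 activator, 0.09. *Cdc16* was the 1 gene of the 15 that was lower with the block, against 3.85% of all genes. Of 26 replication-dependent histone genes 0 passed and 2 reached an unadjusted p under 0.05, against the same 18.4%; their median was -0.07. *H2ac1*, *H2ac4*, *H2bc3* and *H3c7* had -0.25, -0.43, -0.24 and -0.27, with adjusted p from 0.25 to 0.34 (limma). Of these, *H3c7* had means of 5.94 in empty vector and 5.67 in IKZF1 arrays, under the receptor gene limit in both groups. With the block 1 histone gene was lower, *H2ac4* (adjusted p = 0.028), against 3.85% of all genes. Histone genes are near-identical copies, so their probe sets may share signal.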

How the data were processed

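Expression was measured on 6 Affymetrix arrays, 3 per group, grouped by the transduction in the labels. The deposited values are probe set intensities made with RMA, a background correction, quantile normalization and probe summary, per the submitters' processing notes. They run from 11.1 to 23523, so the scale was read as linear. No source used here names its version. Quantile normalization equalises arrays and can reduce a shift common to most genes. From these, log2(intensity + 1) was computed. Of 35421 probe sets, 21789 pair with 1 symbol, 1621 with several and 12011 with none here; symbols came from the platform table, updated through gene number (GRCm38.p6). The brightest probe set stood for each of 19936 genes.

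Groups were compared with limma 3.58.1 (R 4.3.3, lmFit, eBayes, 2-sided), adjusted by Benjamini-Hochberg over all genes, threshold 0.05, with no level filter. Tests were checked on simulated data in which genes varied independently, with the same spread in both groups. The members moved together and spread unequally between the groups, a case that this check does not cover. Members and lists were chosen with earlier results of these data known. All measured members are named, and up to 4 genes of each further list, those past the threshold first and then by the smallest p. Replicate numbers come from the titles, which do not say what they mark; since every same-numbered pair correlated above 0.1 (r = 0.24, 0.60 and 0.66), blocked results (number as a term in the fit) are given where they change a call or count. Empty vector 1 with IKZF1 2 also lay above it (r = 0.11).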

Additional observations from a re-analysis of the deposited data

How the results depend on the processing

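Every member's call of not past the threshold held under all 15 other settings run, except *E2f2* without empty vector 3; leaving out arrays gave 0 to 1 members called, and 0 to 1 in S phase. The lowest adjusted p of a member was 0.19 as reported, 0.063 with array weights, 0.073 with the replicate block and 0.034 to 0.50 when an array was left out. The count over all genes was 1438 with the replicate block, 1481 with array weights and 24 to 947 when an array was left out. Of the 39 members, 17 kept their sign in all settings. Signs turned with median centring in *Mcm4* (-0.02), *Pcna* (-0.02), *Cdc6* (-0.01), *Plk1* (-0.02) and *Cdc20* (-0.03); with quantile normalization in *Mki67* (0.03) and *Ccnb2* (0.02); with cyclic loess in *Mki67* (0.02) and *Ccne1* (0.001); and with array weights in *Ccne1* (0.06), *Mki67* (0.01), *Bub1b* (0.06) and *Cenpe* (0.05). The cause was not tested, and the estimate of the array weights stopped before it converged. Leaving out 1 array gave differences from -0.07 to 0.24 for *Mcm2*, -0.20 to 0.10 for *Mcm3*, -0.13 to 0.14 for *Mcm4*, -0.10 to 0.20 for *Mcm5*, -0.08 to 0.19 for *Mcm6*, -0.06 to 0.25 for *Mcm7*, -0.12 to 0.17 for *Pcna*, -0.16 to 0.01 for *Rrm1*, -0.09 to 0.59 for *Ung*, -0.33 to 0.25 for *Ccne1*, -0.17 to 0.03 for *Cdk2*, -0.09 to 0.35 for *E2f1*, -0.23 to 0.33 for *Cdc6* and -0.24 to 0.05 for *Cdc45*. In G2/M genes it gave -0.06 to 0.01 for *Mki67*, -0.24 to 0.003 for *Cdk1*, -0.05 to 0.09 for *Plk1*, -0.18 to 0.08 for *Bub1b*, -0.30 to 0.08 for *Cenpe*, -0.17 to 0.03 for *Cenpf* and -0.04 to 0.09 for *Cdc20*. The order of the control arrays held in 39 members under each other scaling run except cyclic loess (38), and the larger control spread in 33 to 36; these checks were chosen after seeing the data.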
